A study of Mus musculus with 6 samples.

Results

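The miR-181 family was followed in small RNA libraries from 3 tumors and 3 oviducts of mice. The family comprises miR-181a, miR-181b, miR-181c and miR-181d, and 7 of the 1915 mouse names in the count table were taken as its members. They were taken with earlier results of these data known. These are the 4 guide strands (mmu-miR-181a-5p, mmu-miR-181b-5p, mmu-miR-181c-5p and mmu-miR-181d-5p) and 3 strands of the opposite arm (mmu-miR-181a-1-3p, mmu-miR-181a-2-3p and mmu-miR-181c-3p), and the species prefix is left out from here on. The table also lists miR-181b-1-3p, miR-181b-2-3p and miR-181d-3p, which are not among the members. Their few counts are given with the hairpins they belong to. The tumors were primary tumors labelled ADT, which the labels do not spell out, with oviduct as their tissue. They carried Dicer1ko/D1693N, a knocked-out allele beside the D1693N allele. The oviducts were normal tissue and carried Dicer1+/D1693N, so D1693N was present in all 6 samples. No treatment was given, and the labels state no age and no driver of the knockout. Tissue state, genotype and a tag in the column names that differs between the groups all changed together and cannot be told apart.

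MicroRNAs are cut from hairpin precursors by Dicer, which leaves a duplex of a 5p and a 3p strand. The strand that is loaded into Argonaute and pairs with messenger RNAs through its seed (bases 2 to 8) is called the guide, and the other is the passenger. Dicer has separate RNase III domains for the arms: RNase IIIb cuts on the 5p side and RNase IIIa on the 3p side, and D1693N lies in RNase IIIb. In the miR-181 family the 5p strands are the usual guides. They are best known from blood and vessels, where miR-181a tunes T cell receptor signalling in developing thymocytes by lowering phosphatases and miR-181b dampens inflammatory signalling in endothelial cells.

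The mature sequences from RefSeq (GRCm38.p6) are shown because the 3p strands that were counted and those that were hardly counted differ in them. The seed is in capitals.
miR-181a-5p: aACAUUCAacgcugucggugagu
miR-181b-5p: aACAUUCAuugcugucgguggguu
miR-181c-5p: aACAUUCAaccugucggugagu
miR-181d-5p: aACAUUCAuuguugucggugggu
miR-181a-1-3p: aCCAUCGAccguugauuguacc
miR-181c-3p: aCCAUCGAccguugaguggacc
miR-181a-2-3p: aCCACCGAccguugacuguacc
miR-181b-1-3p: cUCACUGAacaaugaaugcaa
miR-181b-2-3p: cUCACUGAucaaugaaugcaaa
miR-181d-3p: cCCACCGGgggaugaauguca
The 4 guides share the seed ACAUUCA, and no other of the 1623 mouse names with a RefSeq sequence has it. The guide miR-181c-5p is miR-181a-5p without base 11, counted from the 5′ end. Compared with miR-181b-5p, miR-181d-5p has the substitution C12U and ends 1 base earlier. On the other arm miR-181a-1-3p and miR-181c-3p share a seed and their first 15 bases, with U16G and U19G in miR-181c-3p. The strand miR-181a-2-3p carries U5C and U16C relative to miR-181a-1-3p, and U5C lies in the seed. How reads that match several of these names were assigned is not given in the sources used here. Guides this alike may therefore have exchanged reads, or a read may have been counted under several of them. The same holds for the 3p strands of miR-181a and miR-181c.

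The 6 hairpins lie in 3 pairs (GENCODE M21, GRCm38). Mir181a-1 (chr1:137966455-137966541, plus strand) and Mir181b-1 (chr1:137966639-137966718) are 97 bases apart in an exon of the long noncoding gene A430106G13Rik. Mir181a-2 (chr2:38852735-38852810, plus strand) and Mir181b-2 (chr2:38853830-38853918) are 1019 bases apart in an intron of Nr6a1, which encodes an orphan nuclear receptor and is read from the opposite strand. Mir181c (chr8:84178873-84178961, minus strand) and Mir181d (chr8:84178716-84178787) are 85 bases apart in an intron of Nanos3, a germ cell gene of the same strand. Both Mir181a hairpins give the same miR-181a-5p, so its counts cannot be split between the loci. Their 3p strands differ in sequence and can be split as far as the reads were told apart. The hairpins are printed with the mature strands in capitals.
Mir181a-1: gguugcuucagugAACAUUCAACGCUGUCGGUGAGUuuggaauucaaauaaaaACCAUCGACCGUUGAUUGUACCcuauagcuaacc
Mir181a-2: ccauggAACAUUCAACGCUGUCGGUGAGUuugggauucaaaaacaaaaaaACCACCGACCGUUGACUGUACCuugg
Mir181d: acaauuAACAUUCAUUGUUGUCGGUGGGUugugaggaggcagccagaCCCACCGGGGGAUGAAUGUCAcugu

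Libraries held 154002 to 272167 mouse microRNA counts in the tumors and 297039 to 580390 in the oviducts. Levels are given as CPM, counts scaled by library size and TMM (trimmed mean of M-values) factors, and as mean ± SD over the 3 libraries of a group. In these bulk samples fewer cells of a type and less RNA per cell cannot be told apart. Of microRNAs that mark other cells, 0 of 7 leukocyte names were called by edgeR, and their summed level was 1531 to 7586 CPM in the tumors and 1546 to 2535 CPM in the oviducts. Both endothelial names (the arms of miR-126a) were higher, at 15198 to 20196.5 CPM in the tumors and 7146 to 9548 CPM in the oviducts. Of 5 tested multiciliated names 3 were lower, at 422 to 1209 CPM in the tumors and 14867 to 21618 CPM in the oviducts. Smooth muscle names summed to 94643 to 835521 CPM in the tumors and 489781 to 557882 CPM in the oviducts, with 2 of 4 lower. Epithelial names summed to 4165 to 7298 CPM in the tumors and 7218 to 12212 CPM in the oviducts, with 1 higher, 1 lower and 5 not called. Red cell names summed to 1876 to 11663 CPM in the tumors and 4487 to 5656 CPM in the oviducts, with 1 of 2 tested higher. None of the names on these lists was at 0 counts over a whole group. The part of these cell types in the miR-181 values was not tested.

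The guides were lower in the tumors, each by about the amount usual for a 5p strand, while the 3p strands rose from low levels to the range of the guides. The most abundant member, miR-181a-5p, had 8666, 7839.6 and 10955.5 CPM in tumors 1, 2 and 3, against 18366, 12677 and 15179 CPM in oviducts 1, 2 and 3. All tumors lay below all oviducts, but tumor 3 came near oviduct 2. Its mean was 9154 ± 1614 CPM in the tumors and 15407.5 ± 2851 CPM in the oviducts (n = 3 each), a log2 fold change (tumor over oviduct) of -0.75 (SE 0.28, edgeR quasi-likelihood adjusted p = 0.0450). This call sits at the threshold of 0.05. It was lost without tumor 2 (adjusted p = 0.153), oviduct 1 (0.0983) or oviduct 3 (0.0571), and with RLE factors (0.0516), upper-quartile factors (0.0658), library totals alone (0.641) or identical rows kept once (0.0606). Among all names in a library, miR-181a-5p ranked 15, 16 and 11 by count in the tumors and 10, 11 and 10 in the oviducts.

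The guide of Mir181c, miR-181c-5p, had 922, 773 and 1257 CPM in the tumors and 2170.2, 2130.2 and 2079 CPM in the oviducts. The oviducts lay close together, and each tumor was well below them. The log2 fold change was -1.11 (SE 0.32, edgeR adjusted p = 0.0133). The guide of both Mir181b hairpins, miR-181b-5p, had 398, 382 and 585 CPM in the tumors and 1163, 803 and 1051 CPM in the oviducts, a log2 fold change of -1.14 (SE 0.33, edgeR adjusted p = 0.0136). The least abundant guide, miR-181d-5p, had 141, 116 and 176 CPM in the tumors and 437, 345 and 478 CPM in the oviducts, a log2 fold change of -1.54 (SE 0.38, edgeR adjusted p = 0.00618). In each of the 4 guides tumor 3 had the highest tumor value and tumor 2 the lowest, and the groups did not overlap. Without tumor 2 the calls of miR-181b-5p (adjusted p = 0.0560) and miR-181c-5p (0.0578) were lost, while that of miR-181d-5p held.

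All 4 guides were thus called lower, against 48.4% of the 95 tested 5p names called lower and 25.6% of all 227 tested names. The groups did not overlap, with tumors lower, for 30.4% of all tested names. The median log2 fold change of the guides was -1.13, beside -1.04 for the tested 5p names and 0.20 for all tested names. From the highest log2 fold change down, miR-181a-5p, miR-181c-5p, miR-181b-5p and miR-181d-5p ranked 40, 49, 52 and 65 of 95. The guides therefore stood in the middle of the 5p names. With library totals alone none of the 4 guides was called (adjusted p between 0.149 and 0.641), and their log2 fold changes were -0.30 for miR-181a-5p, -0.67 for miR-181b-5p, -0.66 for miR-181c-5p and -1.10 for miR-181d-5p. That scaling also moved the median of all tested names to 0.65, and TMM factors from 3p names alone moved it to -0.73. Measured from the median of all tested names, miR-181a-5p lay between -0.95 and -0.92 in the 5 scalings tried, and miR-181d-5p between -1.76 and -1.70. A scaling moves all names nearly alike, so such a distance stays nearly constant by construction.

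The 3p strands rose many times over. The passenger of Mir181a-1, miR-181a-1-3p, had 982, 1473 and 1169 CPM in the tumors against 59.2, 49.3 and 47.4 CPM in the oviducts. The lowest tumor exceeded the highest oviduct many times. Its log2 fold change was 4.53 (SE 0.36, edgeR adjusted p = 1.76e-05), a 23.1-fold rise. The passenger of Mir181a-2, miR-181a-2-3p, had 2271, 1752 and 5363 CPM in the tumors against 131, 104 and 170.0 CPM in the oviducts, and tumor 3 stood above the other tumors. Its log2 fold change was 4.54 (SE 0.52, edgeR adjusted p = 8.57e-05), or 3.81 without tumor 3. By count it ranked 34, 38 and 19 among all names in the tumors and 138, 144 and 124 in the oviducts.

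The 3p strand of Mir181c, miR-181c-3p, had 1551, 816 and 2800.4 CPM in the tumors against 137, 139 and 123 CPM in the oviducts. Tumor 3 was again the highest and tumor 2 the lowest. Its log2 fold change was 3.69 (SE 0.48, edgeR adjusted p = 0.000171), or 3.07 without tumor 3. Only the member 3p strands of the family had enough counts for the edgeR test. All 3 member 3p strands were called higher, against 41.8% of the 110 tested 3p names and 26.9% of all tested names. For 30% of all tested names the groups did not overlap with tumors higher. Among the 110 they ranked 7 (miR-181a-2-3p), 8 (miR-181a-1-3p) and 13 (miR-181c-3p) from the largest rise, and their median log2 fold change was 4.53 beside 0.89 for all tested 3p names. Measured from the median of all tested names, the 3 strands lay between 3.46 and 4.42 in the 5 scalings. By construction, scaling hardly moves this distance. No scaling or left-out library ended a call.

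In order of mean level the tumors had miR-181a-5p, miR-181a-2-3p, miR-181c-3p, miR-181a-1-3p, miR-181c-5p, miR-181b-5p and miR-181d-5p. From miR-181a-2-3p to miR-181c-5p each strand overlapped the next in its tumor values, so this middle of the order is not separated by the spread between tumors. In the oviducts the 4 guides came first, as miR-181a-5p, miR-181c-5p, miR-181b-5p and miR-181d-5p, with no overlap between neighbours. They were followed by miR-181a-2-3p and miR-181c-3p, which overlapped, and by miR-181a-1-3p. Levels of different strands also carry differences in how well each sequence takes the adapters, which these data do not measure.

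**Figure D1:**
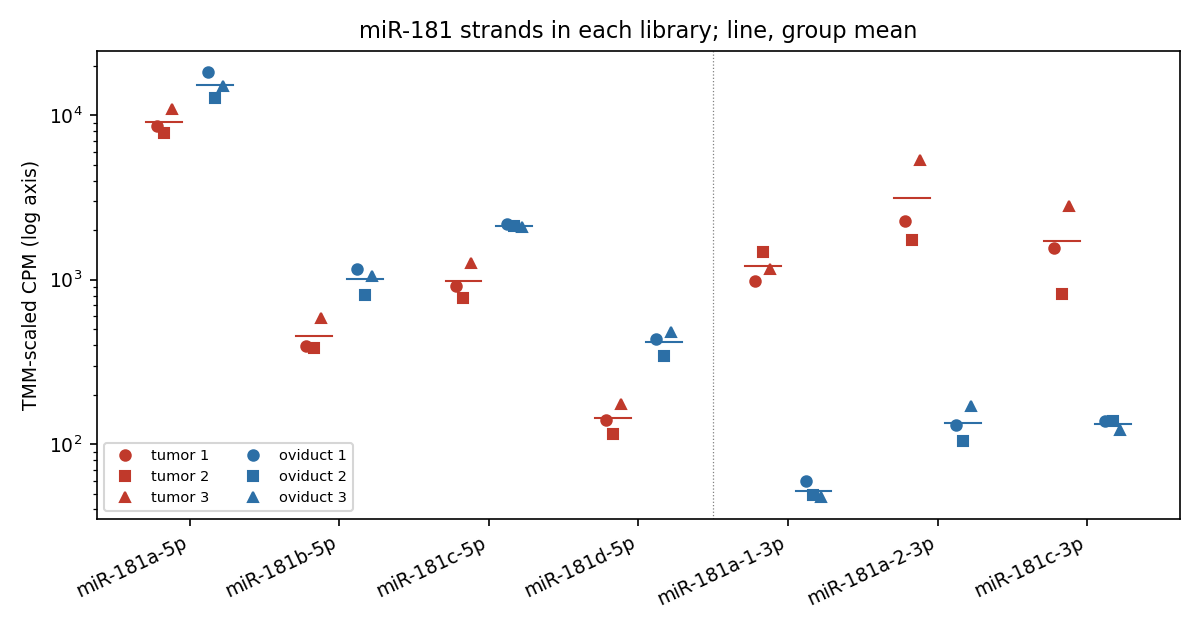
TMM-scaled CPM on a log axis for the 7 members, with the 4 guides left of the dotted line and the 3 members of the 3p arm right of it; red points are tumors, blue points oviducts, symbols mark the library number and lines the group means. The guides are lower in the tumors by less than 3-fold, whereas the 3p strands sit between 816 and 5363 CPM in the tumors and between 47.4 and 170.0 CPM in the oviducts.

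**Figure D2:**
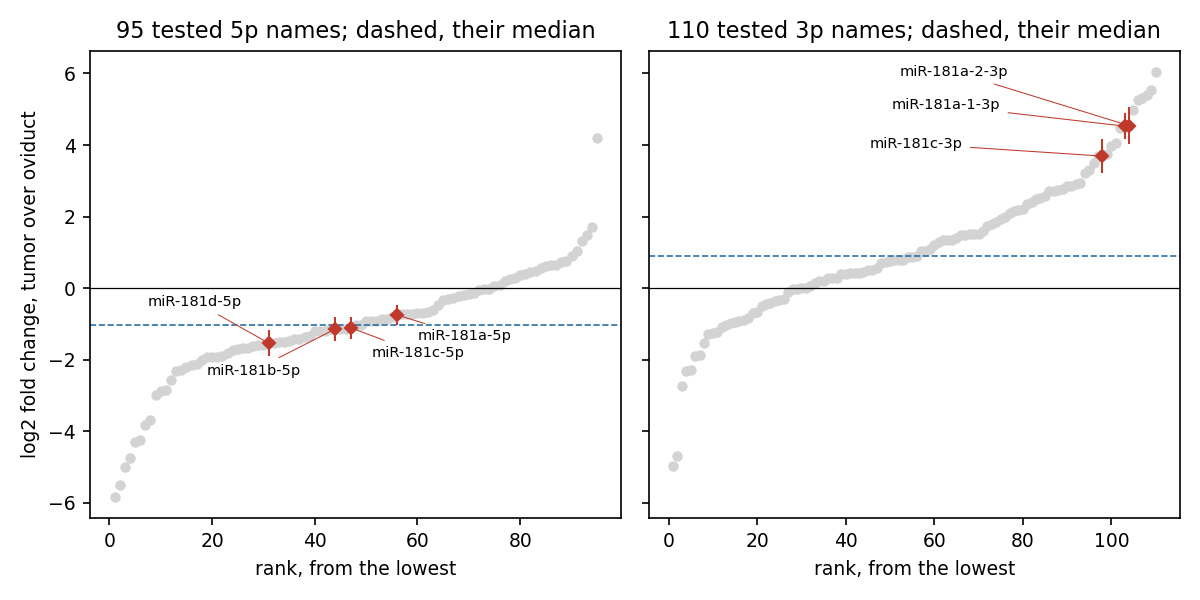
Log2 fold change (tumor over oviduct) of every tested 5p name (left) and 3p name (right) in order of size, with members in red and bars showing the SE; dashed lines are the medians of -1.04 and 0.89. The 4 guides lie near the 5p median, and the 3 member 3p strands lie near the top of the 3p names.

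The pooled guide dose, the sum of the 4 strands with the shared seed, was 10127, 9110.4 and 12973 CPM in the tumors and 22136, 15956 and 18788 CPM in the oviducts. It was 10737 ± 2002 CPM in the tumors and 18960.0 ± 3094 CPM in the oviducts (n = 3 each), a log2 ratio of means of -0.82. As a share of the mouse counts the guides took 0.739% (exact 95% binomial interval 0.707 to 0.772), 1.20% (1.15 to 1.25) and 1.92% (1.85 to 1.99) in the tumors. In the oviducts they took 1.89% (1.85 to 1.93), 1.51% (1.47 to 1.54) and 1.60% (1.56 to 1.65). On this scale the groups overlapped, tumor 3 being the highest of the 6 libraries and tumor 1 the lowest. The smooth muscle microRNA miR-143-3p took 60.9%, 27.7% and 13.9% of the counts in tumors 1, 2 and 3 and 44.1%, 45.8% and 47.2% in the oviducts. A share of all counts moves with that strand, and TMM scaling lessens its weight. The log2 ratio of the pooled guides was -0.37 with library totals alone and -1.73 with TMM factors from 3p names.

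The pooled member 3p strands had 4804, 4040.0 and 9333 CPM in the tumors and 327, 292 and 340.0 CPM in the oviducts. On average the guides differed by -8223 CPM (tumor minus oviduct) and the member 3p strands by 5739 CPM. The sum of both arms was 16796 ± 4855 CPM in the tumors and 19279.8 ± 3110.4 CPM in the oviducts, with overlapping groups. With TMM the hairpins differed in this sum. For miR-181a both arms together gave 13491 ± 3489 CPM in the tumors and 15594.5 ± 2868 CPM in the oviducts, and for miR-181c 2706 ± 1251 CPM in the tumors and 2259 ± 53.5 CPM in the oviducts, and the groups overlapped in both. For miR-181b it was 478 ± 101 CPM in the tumors and 1008 ± 186 CPM in the oviducts, and for miR-181d 159 ± 51.0 CPM in the tumors and 420 ± 68.2 CPM in the oviducts, without overlap. The direction for the whole family depended on scaling. Its log2 ratio was -0.20 with TMM, 0.27 with library totals alone and -1.12 with TMM factors from 3p names. Overlap of the groups in the hairpin sums depended on scaling too. With library totals alone the groups overlapped for miR-181b (log2 ratio -0.61) as well, and the miR-181a ratio was 0.26 instead of -0.21. With TMM factors from 3p names the groups did not overlap for miR-181a (-1.12) or miR-181c (-0.68, against 0.26 with TMM). The miR-181d sum was lower in the tumors without overlap in every scaling tried.

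The arm ratio, which needs no scaling between libraries, shifted towards 3p in every tumor for miR-181a and miR-181c. For miR-181b and miR-181d it rested on few 3p counts, which are given below. In miR-181a the 5p and pooled 3p counts were 1721 and 646 in tumor 1, 1826 and 751 in tumor 2, and 2492 and 1486 in tumor 3. In the oviducts they were 5890 and 61, 6945 and 84, and 3840 and 55. The 3p share was 31.3% ± 5.36 in the tumors and 1.21% ± 0.194 in the oviducts (n = 3 each), so miR-181a-5p was still the more abundant arm in every tumor. Taken singly, the log2 ratio of miR-181a-5p to miR-181a-1-3p was 3.14, 2.41 and 3.23 in the tumors and 8.24, 7.98 and 8.26 in the oviducts, a change of -5.24 (SE 0.58, limma adjusted p = 3.81e-05). That to miR-181a-2-3p was 1.93, 2.16 and 1.03 in the tumors and 7.11, 6.92 and 6.46 in the oviducts, a change of -5.12 (SE 0.60, limma adjusted p = 4.95e-05). These are 37.7-fold and 34.9-fold falls, and they share the same 5p counts.

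In miR-181c the order of the arms turned over. The 5p and 3p counts were 183 and 308 in tumor 1, 180 and 190 in tumor 2, and 286 and 637 in tumor 3, against 696 and 44, 1167 and 76, and 526 and 31 in the oviducts. The 3p share was 62.7% (exact 95% interval 58.3 to 67.0), 51.4% (46.1 to 56.6) and 69.0% (65.9 to 71.99) in tumors 1, 2 and 3, and 5.95%, 6.11% and 5.57% in the oviducts. The interval of tumor 2 includes equal arms, and the intervals of tumors 1 and 3 do not. The change of the log2 ratio was -4.65 (limma SE 0.59 and adjusted p = 8.19e-05), and it lay between -4.94 and -4.40 when a library was left out. In the oviducts the miR-181c hairpin already had a larger 3p share (5.88% ± 0.281) than miR-181a (1.21% ± 0.194).

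**Figure D3:**
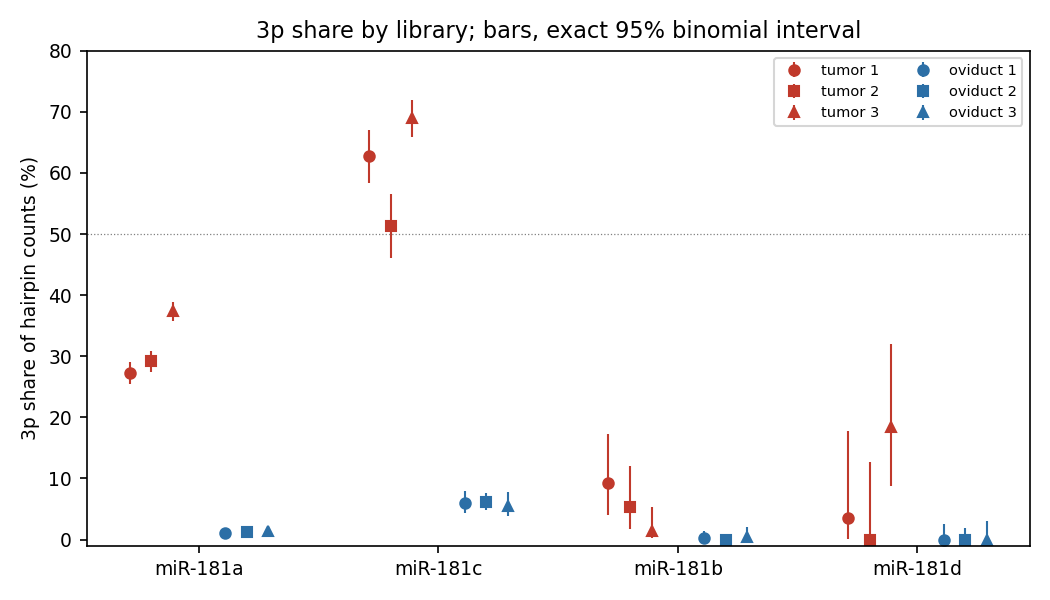
Share of 3p counts among all counts of a hairpin family in each library, with copies pooled; red points are tumors, blue points oviducts, and bars are exact 95% binomial intervals that cover counting error only. The share exceeds the dotted 50% line in the 3 tumors for miR-181c, lies between 27.3% and 37.4% for miR-181a, and rests on few 3p counts for miR-181b and miR-181d.

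The neighbours of these hairpins had few 3p counts in either group. The strands miR-181b-1-3p and miR-181b-2-3p had 8 and 7 counts in the 3 tumors together, beside 301 of miR-181b-5p, and 1 count each in the oviducts, beside 1079. The odds of 3p against 5p were higher in the tumors by 28.6 (exact 95% interval 3.81 to 1274) for miR-181b-1-3p and by 25.02 (3.19 to 1132) for miR-181b-2-3p. The strand miR-181d-3p had 1, 0 and 9 counts in tumors 1, 2 and 3, beside 28, 27 and 40 of miR-181d-5p, and 0 in the oviducts, beside 140, 189 and 121. By the floor of 3 counts, a count of 0 allows a 3p share of up to 11.1% in tumor 2 and up to 2.14%, 1.59% and 2.48% in oviducts 1, 2 and 3. The upper bounds of the exact 95% intervals are wider, at 12.8% in tumor 2 and 2.60%, 1.93% and 3.00% in the oviducts. The odds ratio for miR-181d had a lower exact 95% bound of 10.3, and 9 of its 10 3p counts came from tumor 3. The intervals of these odds use counts summed over a group. They cover counting error only, not the spread between libraries. The log2 arm ratio changed by -3.84, -3.67 and -4.17 for the pairs of miR-181b-1-3p, miR-181b-2-3p and miR-181d-3p (limma adjusted p = 0.00293, 0.00225 and 0.00225). These values follow the pseudocount: with 0.1 and 5 in place of 0.5, that of miR-181d-3p was -5.56 and -2.66. That of miR-181b-1-3p was then -5.28 and -2.30, and that of miR-181b-2-3p -5.10 and -2.24. Single libraries move them too. That of miR-181d-3p was -5.04 without tumor 2 and -3.19 without tumor 3. That of miR-181b-1-3p was -4.52 without tumor 3 and -4.57 without oviduct 3, but -3.36 without tumor 1 and -3.41 without oviduct 2. That of miR-181b-2-3p was -4.28 without tumor 3 and -3.11 without tumor 1. With a 3p count of 0 the ratio follows the 5p count alone. For the pair of miR-181d-3p the log2 ratio was 5.78 in tumor 2 and 7.92 to 8.57 in the oviducts, all with 0 3p counts.

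The 3p strands of the family fell into 2 sets by count. Those of miR-181a and miR-181c begin with A and had 804 (miR-181a-1-3p), 2079 (miR-181a-2-3p) and 1135 (miR-181c-3p) counts in the 3 tumors together, against 58, 142 and 151 in the oviducts. Those of miR-181b and miR-181d begin with C and had 7 to 10 counts in the tumors and 0 or 1 in the oviducts, though Mir181b-1 lies within 97 bases of Mir181a-1 and Mir181d within 85 bases of Mir181c. The guide miR-181b-5p was also less abundant than miR-181a-5p. Per count of the own guide, the tumors together held 0.0498 counts of the pooled 3p strands in miR-181b and 0.105 in miR-181d, but 0.477 in miR-181a and 1.75 in miR-181c. In the oviducts these values were 0.00185 in miR-181b and 0 in miR-181d, with 0.0120 in miR-181a and 0.0632 in miR-181c.

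Among all 155 pairs of a 3p name with its 5p name, 50.3% had a called fall of the ratio and 3.87% a called rise, and in 54.2% the groups did not overlap with tumors lower. The median log2 change was -1.78. All 6 pairs of the miR-181 hairpins were called lower. Counted from the largest fall they ranked 17 (miR-181a-1-3p), 20 (miR-181a-2-3p), 24 (miR-181c-3p), 29 (miR-181d-3p), 33 (miR-181b-1-3p) and 35 (miR-181b-2-3p). Next to miR-181a-1-3p in this order stood the pairs of miR-125a-3p (-5.40), miR-125b-2-3p (-5.26), miR-196a-2-3p (-5.23) and miR-15a-3p (-5.23), and next to miR-181c-3p those of miR-10b-3p (-4.66), let-7c-1-3p (-4.65), miR-214-3p (-4.63) and miR-93-3p (-4.54).

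**Figure D4:**
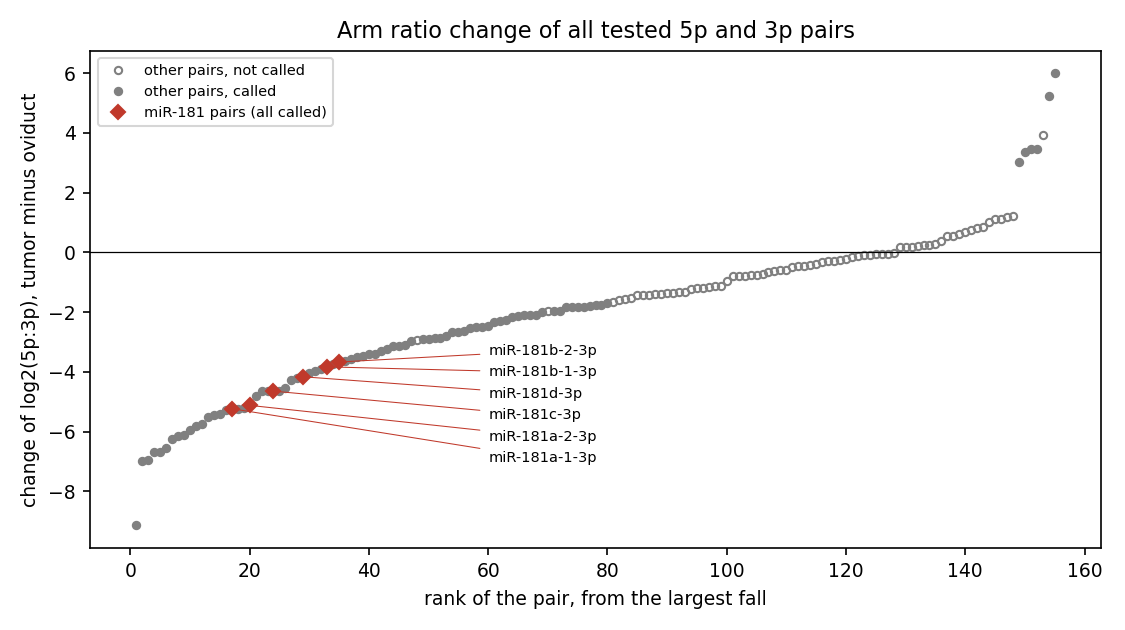
Change of the log2 5p:3p ratio, tumor minus oviduct, for all 155 pairs tested, ordered from the largest fall; red diamonds are the 6 miR-181 pairs, filled grey points other called pairs and open points pairs not called. The miR-181 pairs lie between ranks 17 and 35, with changes between -5.24 and -3.67, and share a 5p name within miR-181a and within miR-181b.

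In these libraries the proportions of the guides differed between the groups. Of the pooled guide counts, miR-181a-5p made up 85.4% ± 0.825 in the tumors and 81.1% ± 1.77 in the oviducts (n = 3 each). The share of miR-181c-5p was 9.09% ± 0.605 in the tumors and 11.4% ± 1.80 in the oviducts, that of miR-181b-5p 4.21% ± 0.290 in the tumors and 5.29% ± 0.284 in the oviducts, and that of miR-181d-5p 1.34% ± 0.0614 in the tumors and 2.23% ± 0.292 in the oviducts. Relative to miR-181a-5p in the same library, the log2 ratio differed (tumor minus oviduct) by -0.40 for miR-181b-5p, -0.39 for miR-181c-5p and -0.78 for miR-181d-5p. The groups did not overlap in any of these 3 ratios, which share the same miR-181a-5p counts. Each gave a two-sided exact permutation p of 0.1, the smallest that 3 against 3 allows, and 0.133 adjusted over the 4 ratios compared, so none can pass 0.05 in this design. The miR-181c-5p ratio of oviduct 1 (-3.08) lay next to that of tumor 3 (-3.12), and its difference of -0.39 was -0.26 without oviduct 2 and -0.51 without oviduct 1.

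The passengers of the Mir181a loci did not move apart in a common direction. There were 195 counts of miR-181a-1-3p beside 451 of miR-181a-2-3p in tumor 1, 343 beside 408 in tumor 2 and 266 beside 1220 in tumor 3. The oviducts had 19 beside 42, 27 beside 57 and 12 beside 43. The ratio of miR-181a-1-3p to miR-181a-2-3p was 0.432, 0.841 and 0.218 in the tumors and 0.452, 0.474 and 0.279 in the oviducts, so the tumors spread to both sides of the oviducts. The mean log2 difference (tumor minus oviduct) was 0.11 (two-sided exact permutation p = 1), and it was -0.37 without tumor 2. The strand from Mir181a-2 was the more abundant of the pair in all 6 libraries.

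**Figure D5:**
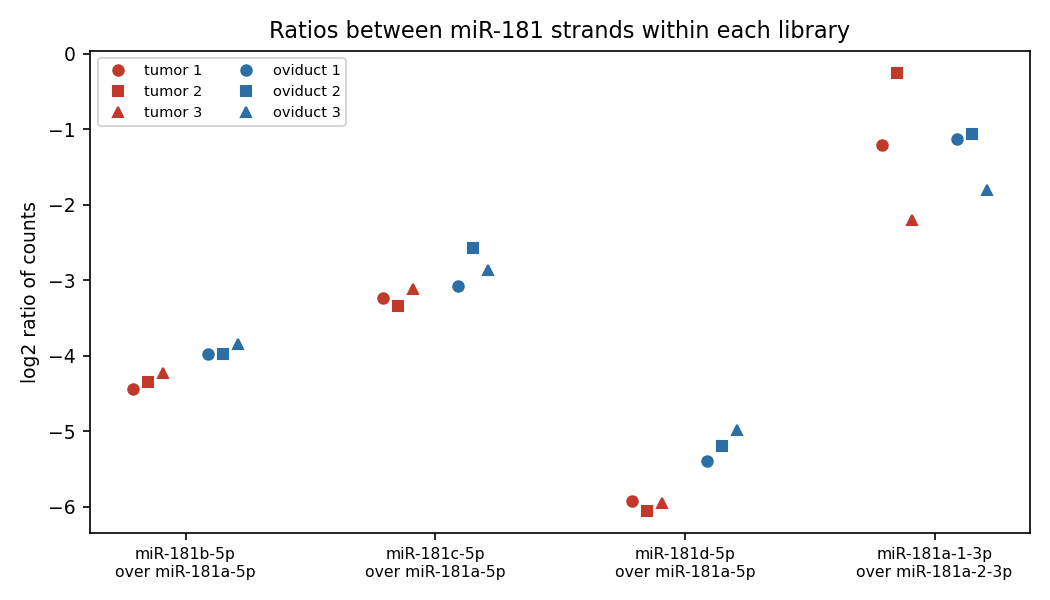
Log2 ratio of counts between strands of the family in each library; red points are tumors, blue points oviducts, and symbols mark the library number. The 3 guide ratios to miR-181a-5p are lower in every tumor than in every oviduct, while the ratio of the miR-181a 3p copies in the tumors spans from -2.20 to -0.25 around the oviduct values.

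Likeness to other microRNAs was measured by Pearson's r of log2(CPM + 1) over the 6 libraries, among 168 names outside the family with a mean of at least 100 CPM. Such an r mainly reflects the 2 groups and is given as a description. Nearest to miR-181a-5p were miR-200a-3p (r = 0.972), miR-30a-5p (0.964), miR-99a-5p (0.902), miR-100-5p (0.895) and miR-744-5p (0.889). The epithelial strand miR-200a-3p had 589 ± 56.9 CPM in the tumors and 954 ± 87.6 CPM in the oviducts, and miR-30a-5p had 6251 ± 1150.0 CPM in the tumors and 17371 ± 3010 CPM in the oviducts (n = 3 each). Nearest to miR-181a-1-3p were miR-214-3p (r = 0.991), miR-99b-3p (0.991), miR-30d-3p (0.987) and miR-199a-3p with miR-199b-3p (0.986 each, with identical counts). All of these are 3p strands. The passenger miR-30d-3p had 1200 ± 331 CPM in the tumors and 70.9 ± 10.2 CPM in the oviducts, a log2 fold change of 4.06.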

How the data were processed

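Small RNA libraries from 3 primary tumors and 3 oviducts of mice were analysed. Per the labels' protocols, a miRNeasy kit gave the RNA and the Illumina TruSeq small RNA kit the libraries. The submitters' processing notes name cutadapt. The deposited values are raw read counts per mature microRNA name, taken from BAM files of trimmed reads per the file headers. The aligner, counting program, microRNA reference and build were each not given in the sources used here. The 67 names of other species (10 counts) were left out.

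Single names were tested in R 4.3.3 with edgeR 4.0.16 (filterByExpr, minimum count 10, TMM, robust quasi-likelihood test), and 227 passed the filter. The SE is the log2 fold change divided by the square root of F. Each 3p name was paired with its 5p name, with 3p copies kept apart. Where a 3p name had several 5p copies, as for miR-103-3p, their counts were summed. The value log2((5p + 0.5)/(3p + 0.5)) was tested with limma 3.58.1 for pairs with a mean of at least 20 counts. Tests were two-sided, with Benjamini-Hochberg adjustment over all names or pairs and a threshold of 0.05. Ratios within the family were compared with exact permutation tests in scipy 1.17.1. The alternatives used DESeq2 1.42.0, other scalings, filters and pseudocounts, an arm-by-group interaction in edgeR, a replicate block, and the data without each library. The methods were also run on simulated counts with as many raised as lowered names and no shift of a whole arm. That run cannot show how scaling or calls behave under such a shift.

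Members, lists and tests were chosen with earlier results of these data known. Named microRNAs are the members, the 5 names most like miR-181a-5p and miR-181a-1-3p, and the neighbours of a pair in the order of arm ratios. The smooth muscle name miR-143-3p was named beside these, after its values were seen, because of its share of the counts, and miR-126a as the whole endothelial list. Nothing in the labels ties the samples of a group to separate animals, so the spread behind each p-value may be technical. Intervals and floors (3 counts) reflect counting error alone, because without molecular identifiers PCR copies are counted as if they were separate molecules. A floor of 3 counts equals 12.9 to 15.1 CPM in the tumors and 5.48 to 11.9 CPM in the oviducts. Sequences are RefSeq's (GRCm38.p6) and positions GENCODE M21's (GRCm38).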

Additional observations from a re-analysis of the deposited data

How the results depend on the processing

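The calls and directions of the 3 member 3p strands and of the 6 arm ratios held in every alternative that gave a value. The pair of miR-181d-3p gave none at a mean of at least 100 counts. Pooling the 3p copies gave 1 value for both miR-181a pairs. The log2 fold change of miR-181a-5p (-0.75 as reported) lost its call with RLE factors (-0.75), upper-quartile factors (-0.61), library totals alone (-0.30), identical rows kept once (-0.70) and the replicate block (-0.75, adjusted p = 0.0568). It ranged from -1.07 to -0.60 when a library was left out. Library totals alone also ended the calls of miR-181b-5p (-0.67), miR-181c-5p (-0.66) and miR-181d-5p (-1.10). With a library left out, miR-181b-5p ranged from -1.47 to -0.97 and miR-181c-5p from -1.43 to -0.91. The log2 ratio of the pooled guide dose moved from -0.82 to -0.37 with library totals alone and to -1.73 with TMM factors from 3p names, and ranged from -1.14 to -0.66 with a library left out. The log2 difference of miR-181a-1-3p over miR-181a-2-3p (0.11) turned to -0.064 with a pseudocount of 5, and ranged from -0.37 to 0.60 with a library left out.

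Over all tested names, 61 were higher and 58 lower in the tumors. Higher names numbered 98 with no low-count filter. Lower names numbered 26 with library totals alone and 92 with TMM factors from 3p names. Of 155 pairs, 6 rose, and 2 in the interaction of arm and group. Why these values moved was not tested, except that TMM factors from 3p names centre the 3p names by construction. Same-numbered tumors and oviducts did not deviate together (r = -0.07, 0.04 and -0.13 across names), but so few values cannot exclude a pairing by number. Under the replicate block no call of a member or pair other than that of miR-181a-5p changed. Depth limits the 3p strands of miR-181b and miR-181d, which had at most 9 counts in a library.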
